A study of Mus musculus with 9 samples.

Results

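Expression of the proteasome and immunoproteasome subunit genes was examined in 9 RNA-seq libraries from co-cultures of mouse glioblastoma cells and astrocytes. The members were the 50 protein-coding genes whose GENCODE M21 symbols for GRCm38 begin with Psma to Psmg followed by a digit, among 49315 gene IDs in the count table. They comprised 8 genes of the 20S alpha ring, 11 of the 20S beta ring, 9 of the 19S base, 8 of the 19S lid, 6 activators or inhibitors and 7 assembly chaperones. The remaining match, Psmc3ip, is named for an interaction with Psmc3 and acts in meiotic recombination, so it is not a subunit and was described apart. SB28 is a mouse glioblastoma cell line of C57BL/6 origin, here expressing GFP. It was grown at equal numbers with primary neonatal astrocytes of mito::mKate2 mice, a C57BL/6 strain whose mitochondria carry the red protein mKate2, for 2 days in DMEM F12 with N2, EGF, FGF and, by the labels, 2% serum (the methods of the study name another share), without further treatment. Cells were then sorted into astrocytes, SB28 cells without mKate2 (mKate2-) and SB28 cells with mKate2 (mKate2+), that is, with astrocyte-derived mitochondria, from 3 biological replicates each. All 3 groups therefore came from co-culture, the tumor cells were 1 line, and no SB28 cells or astrocytes grown alone were among the samples. Libraries held between 24454561 and 39287841 assigned reads, and values are given as CPM, the counts scaled to a common library total in the order of replicates 1, 2 and 3.

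The astrocyte label was checked against 12 markers. Of these, 10 averaged above 1 CPM in astrocytes, but so did 7 in mKate2- and 6 in mKate2+ SB28 cells. The 12 markers summed to a mean of 1274 CPM in astrocytes, 375 CPM in mKate2- and 379 CPM in mKate2+ cells. Apoe was the most abundant of them in astrocytes (265 ± 4.99 CPM, SD, n = 3) and lay at 2.85 ± 0.321 CPM in mKate2- and 2.47 ± 0.443 CPM in mKate2+ SB28 cells. Slc1a3, a glutamate transporter of astrocytes, lay at 195 ± 35.2 CPM in astrocytes, and Gjb6 had 0 counts in every library. Gja1, a gap junction gene of astrocytes, was at 265 ± 21.2 and 276 ± 10.6 CPM in SB28 cells and at 198 ± 26.3 CPM in astrocytes, so it did not separate the groups in the direction of its label. The astrocyte libraries also held transcripts of the oligodendrocyte lineage genes Olig1 (541, 241 and 304 CPM) and Olig2 (268, 159 and 155 CPM). Summed over the 9 markers of that lineage, the level was 847, 444 and 508 CPM in astrocytes and at most 27.1 CPM in any SB28 library. Astrocyte replicate 3 stood apart from the other astrocyte libraries, with Aldoc at 55.6, 33.8 and 362 CPM and Slc1a2 at 4.46, 11.3 and 56.8 CPM, and had the lowest CPM of the 3 in 41 of the 48 proteasome genes tested. Among SB28 libraries mKate2+ replicate 2 stood apart, being highest of the 6 on the TMM scale in 29 of 46 tested proteasome genes, and in 21 of 46 in CPM. At the other end, mKate2- replicate 2 was lowest of the 6 in 33 of 46 on the TMM scale and in 28 of 46 in CPM. TMM, the scaling used for all fold changes, adjusts library totals for a few abundant genes, whereas values by library are in CPM unless TMM is named.

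The 20S core of the proteasome is a barrel of alpha and beta rings whose proteolytic sites sit on the beta subunits Psmb5 (chymotrypsin-like), Psmb6 (caspase-like) and Psmb7 (trypsin-like). Interferon induces Psmb8, Psmb9 and Psmb10, which take the places of Psmb5, Psmb6 and Psmb7 in newly assembled cores and make the immunoproteasome, a source of peptides for MHC class I. The 19S regulator, built of a base with a ring of ATPases and a lid with a deubiquitinase, feeds ubiquitinated proteins into the core, whereas PA28 caps (Psme1 with Psme2, or Psme3 alone) and PA200 (Psme4) open it without ubiquitin. Nfe2l1 (NRF1) is the transcription factor known for raising all constitutive subunits together when proteolysis falls short.

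Positions are those of GRCm38. Psmb9 (ENSMUSG00000096727, chromosome 17 from 34181987 to 34187764) and Psmb8 (ENSMUSG00000024338, chromosome 17 from 34197721 to 34201454) flank the peptide transporter gene Tap1 (34187553 to 34197225), and Tap2 follows at 34203527 to 34216321. Psmb9 and Tap1 share 212 exonic bases on opposite strands, so reads there could belong to either where strand was not used, and the strand setting of the counting is not given in the sources used here. Psmb10 (ENSMUSG00000031897) lies on chromosome 8 from 105935735 to 105938444. The constitutive counterparts are Psmb5 (ENSMUSG00000022193, chromosome 14 from 54614119 to 54618022), Psmb6 (ENSMUSG00000018286, chromosome 11 from 70525367 to 70527858) and Psmb7 (ENSMUSG00000026750, chromosome 2 from 38588036 to 38644087), the last of which shares 405 exonic bases with Nek6 on the opposite strand. Psme1 and Psme2 are neighbours on chromosome 14 between 55578123 and 55591113.

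RefSeq promoter windows (GRCm38.p6, 250 bases before to 50 after a start) were held for 42 of the 50 genes, in 45 windows, and were searched on both strands for motifs of the factors named above. Psma8, Psmb1, Psmb2, Psmb7, Psmc3, Psmd3, Psmd7 and Psmg2 had no entry. The core of the antioxidant response element, TGACNNNGC, which NRF1 and NRF2 recognise with small Maf proteins, was present in 6 of 45 windows (13.3%) and in 12.4% of all 32851 windows. The interferon-stimulated motif GAAANNGAA was present in 7 of 45 (15.6%) and 8.56% of all windows. Genes with the antioxidant motif were Psmb5, Psmb6, Psmc6, Psmd9, Psmd12 and Psme4. Those with the interferon-stimulated motif were Psmb3, Psmb4, Psmc2, Psmd4, Psmd9, Psme1 and Psmg4, so each motif occurred in constitutive subunit genes. The 3 matches in Psmb5, Psmb6 and Psme1 are shown in 30 bases each. Each is read 5′ to 3′ on the strand of the gene, with the motif in capitals. The match in Psme1 reads GAAANNGAA on the other strand.
Psmb5 (chr14:54618024-54618053, minus strand): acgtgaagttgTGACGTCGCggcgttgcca
Psmb6 (chr11:70525337-70525366, plus strand): actaaagagagTGACGGAGCgctttacgac
Psme1 (chr14:55578493-55578522, plus strand): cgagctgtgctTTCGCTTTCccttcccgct
The window of Psme1 shown here belongs to a RefSeq start that lies inside the annotated gene. Neither motif was found in the windows of Psmb8, Psmb9 and Psmb10. These matches are letters in a window and say nothing of binding.

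The first question was how proteasome gene expression in the tumor cells compared with that in the astrocytes of the same co-cultures. Summed over the 50 genes, expression was higher in SB28 cells, at 5791, 5325 and 4442 CPM in astrocytes, 7882, 7112 and 7688 CPM in mKate2- and 7717, 8027 and 7853 CPM in mKate2+ cells. All 6 tumor libraries lay above all 3 astrocyte libraries, and the group means were 5186 ± 685, 7561 ± 401 and 7866 ± 156 CPM (SD, n = 3). As these are bulk samples, a difference in RNA per cell and a difference in the share of cells that express a gene cannot be told apart. Of the 50 genes, 48 passed the filter on low counts (2 or more of the 6 libraries compared had to exceed 1 CPM), Psma8 and Psmb11 being the exceptions. With edgeR's quasi-likelihood test, adjusted over all 13356 genes tested, 28 of 48 (58.3%) were higher in mKate2- SB28 cells than in astrocytes and 3 (Psmb8, Psmb9 and Psme1) were lower, where 29.3% of all genes were called higher and 33.8% lower. In mKate2+ SB28 cells 31 of 48 (64.6%) were higher and 2 (Psmb8 and Psmb9) lower, where 28.0% and 32.1% of 13342 genes were. Psmb8 and Psmb9 passed the filter only through the astrocytes, so they had to be lower. The comparisons share the astrocyte libraries, so the second is no independent repeat of the first. Without astrocyte replicate 3 the numbers higher were 25 and 25, and without mKate2+ replicate 2 the second was 25. Psmb10, Psmd3 and Psmg3 were the calls lost in mKate2- cells, and Psma2, Psmb4, Psmb6, Psmb10, Psmd3 and Psmd6 those lost in mKate2+ cells without either library.

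Most of these differences were below 2-fold. The median log2 fold change of the 48 genes was 0.49 in mKate2- and 0.61 in mKate2+ cells, beside -0.04 and -0.02 for all genes tested. At a log2 fold change above 1, 5 of 48 genes were called higher in mKate2- cells (10.4%, beside 11.5% of all genes) and 7 in mKate2+ cells (14.6%, beside 12.2%). The 5 were Psma5, Psma7, Psmd7, Psmg1 and Psmc3ip, and the 7 added Psma1 and Psmb5. At a log2 fold change below -1, Psmb8 and Psmb9 were called lower in both, 4.17% of members beside 22.4% and 22.8% of all genes.

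**Figure D1:**
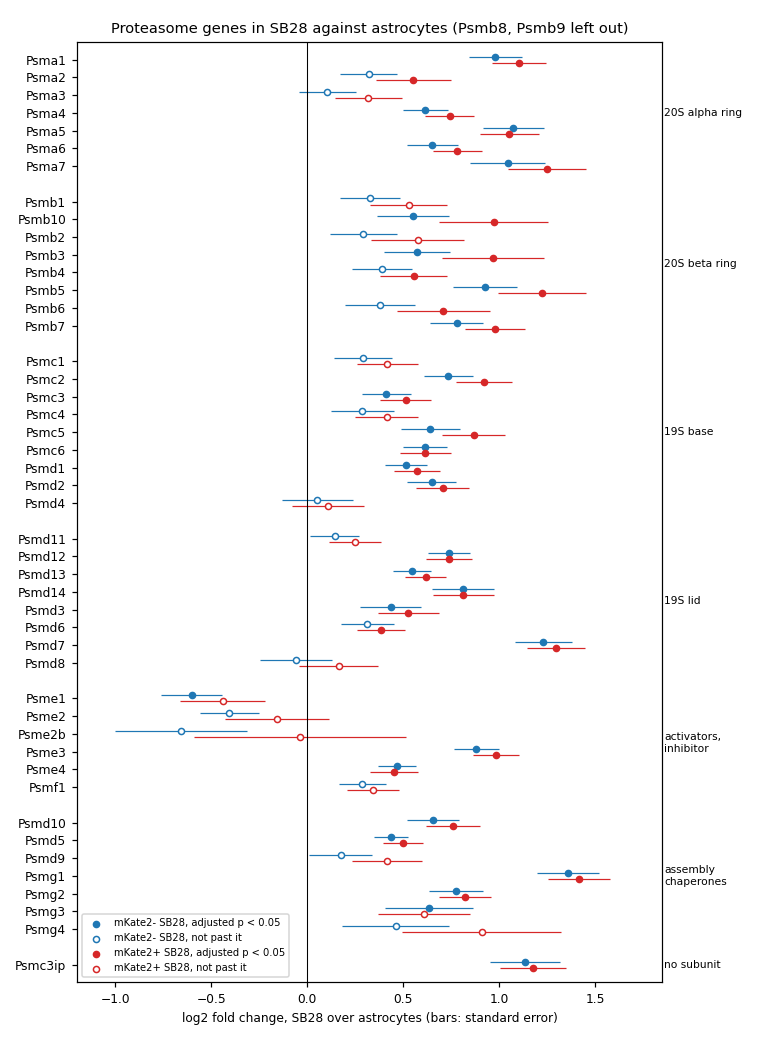
Log2 fold change of each tested proteasome gene in mKate2- (blue) and mKate2+ (red) SB28 cells over astrocytes from edgeR, with the standard error as bar, filled where the adjusted p is below 0.05. Psmb8 and Psmb9 are left out of the axis, and of the genes drawn only Psme1, Psme2, Psme2b and, in mKate2- cells, Psmd8 lay below 0.

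**Figure D2:**
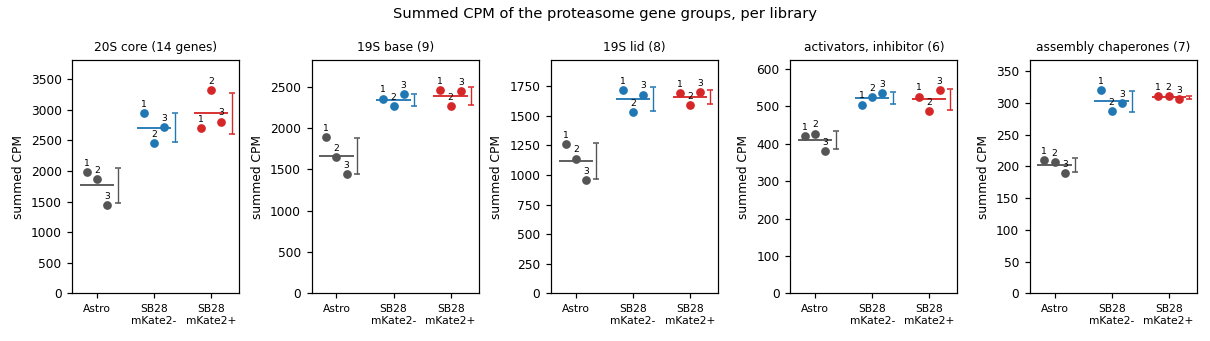
Summed CPM of the genes of each group in every library (points, numbered by replicate), with the group mean as line and the SD as bar (n = 3), on axes that start at 0. The astrocyte libraries lay below every SB28 library in all 5 groups, and mKate2+ replicate 2 was the highest of all in the 20S core.

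In the alpha ring, which gates entry to the core, 5 of 7 tested genes rose in mKate2- and 6 of 7 in mKate2+ SB28 cells (beside 29.3% and 28.0% of all genes), with median log2 fold changes of 0.65 and 0.78. Psma5 (chromosome 3 from 108256926 to 108279974) had 163, 175 and 124 CPM in astrocytes, 358, 283 and 326 in mKate2- SB28 cells and 300.2, 295 and 317 in mKate2+ SB28 cells. The tumor libraries lay above all astrocyte libraries, with log2 fold changes of 1.07 (SE 0.16, adjusted p = 0.000750) for mKate2- and 1.05 (SE 0.15, adjusted p = 0.000840) for mKate2+ cells. Psma1 (chromosome 7 from 114264606 to 114276118) had 121, 119 and 94.7 CPM in astrocytes, 234, 193 and 228 in mKate2- SB28 cells and 218, 230.3 and 233 in mKate2+ SB28 cells, again without overlap. Its log2 fold changes were 0.98 (SE 0.14, adjusted p = 0.000578) for mKate2- and 1.10 (SE 0.14, adjusted p = 0.000424) for mKate2+ cells. Psma7, Psma4 and Psma6 were also higher in both, with log2 fold changes between 0.62 and 1.25. Psma2 passed the test in mKate2+ cells (0.55, SE 0.20, adjusted p = 0.0409) and had a log2 fold change of 0.32 (SE 0.15, adjusted p = 0.0934) in mKate2- cells, while Psma3 had 0.11 and 0.32 and passed in neither. Psma8, the form of Psma7 used in testis, had 1 count in astrocyte replicate 3 and 0 in the other 8 libraries.

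The constitutive beta ring subunits Psmb1 to Psmb7 were all higher in tumor cells by their estimates, and 3 of 7 in mKate2- and 5 of 7 in mKate2+ cells passed the test, where 29.3% and 28.0% of all genes were called higher. Psmb5, the chymotrypsin-like site and the target of proteasome inhibitors such as bortezomib, had 82.9, 73.9 and 57.4 CPM in astrocytes, 153, 121 and 130.3 in mKate2- SB28 cells and 135, 201 and 137 in mKate2+ SB28 cells. Every tumor library was above every astrocyte library, and the log2 fold changes were 0.93 (SE 0.17, adjusted p = 0.00194) for mKate2- and 1.22 (SE 0.23, adjusted p = 0.00272) for mKate2+ cells. Psmb7, the trypsin-like site, had 155, 146 and 115 CPM in astrocytes, 245, 229 and 233 in mKate2- SB28 cells and 254, 279 and 244 in mKate2+ SB28 cells. Its groups did not overlap either, with log2 fold changes of 0.78 (SE 0.14, adjusted p = 0.00166) for mKate2- and 0.98 (SE 0.16, adjusted p = 0.00133) for mKate2+ cells. Psmb6, the caspase-like site, had 160.3, 132 and 99.6 CPM in astrocytes, 180.5, 155 and 172 in mKate2- SB28 cells and 169, 255 and 181 in mKate2+ SB28 cells. Here mKate2- replicate 2 lay below astrocyte replicate 1, so those groups overlapped, and the log2 fold changes were 0.38 (SE 0.18, adjusted p = 0.104) for mKate2- and 0.71 (SE 0.24, adjusted p = 0.0365) for mKate2+ cells. The call in mKate2+ cells was lost in 6 of 13 alternatives, among them the fits without mKate2+ replicate 2 (adjusted p = 0.115) and without astrocyte replicate 3 (adjusted p = 0.0920), with a range of 0.00420 to 0.115. In mKate2- cells Psmb6 passed with a length trend removed (0.55, adjusted p = 0.00662) and without astrocyte replicate 1 (0.57, adjusted p = 0.0119). Without astrocyte replicate 3 its value there was 0.21 (adjusted p = 0.174). Psmb3, a subunit without a catalytic site, rose in both (0.57 and 0.97) and Psmb4 in mKate2+ cells alone passed the test (0.55, SE 0.18, adjusted p = 0.0271, against 0.39, SE 0.16, adjusted p = 0.0613 in mKate2- cells). Psmb1 and Psmb2 passed in neither, with log2 fold changes between 0.29 and 0.58.

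The second question was how the 3 interferon-inducible sites stood against the constitutive ones they replace. They did not behave alike. Psmb8 and Psmb9 were found at low levels in astrocytes and nearly absent from SB28 cells, whereas Psmb10 was higher in SB28 cells. Psmb8, which replaces Psmb5, had 71, 84 and 246 counts in astrocytes (2.9, 2.57 and 7.0 CPM), 0, 6 and 2 counts in mKate2- and 0, 1 and 2 counts in mKate2+ cells. Astrocyte replicate 3 was the highest, and the highest tumor library, mKate2- replicate 2, was at 0.167 CPM. Summed over libraries, 401 counts in astrocytes stood against 8 and 3 in the tumor groups, so that in CPM astrocytes were 50.5-fold (95% interval 25.4 to 118) above mKate2- and 159-fold (95% interval 53.9 to 772) above mKate2+ cells. The intervals are exact conditional binomial ones and cover counting error only. Without astrocyte replicate 3 the ratios were 31.5 and 99, without mKate2- replicate 2 the first was 124, and without mKate2+ replicate 3 the second was 327.

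Psmb9, which replaces Psmb6, had 34, 28 and 77 counts in astrocytes (1.39, 0.856 and 2.19 CPM), 0, 0 and 1 counts in mKate2- and 0, 5 and 0 counts in mKate2+ cells. The 5 counts of the mKate2+ group were all in replicate 2, and without it the group had 0. Astrocytes were 139.9-fold (95% interval 24.7 to 5566) above mKate2- and 33-fold (95% interval 13.8 to 103) above mKate2+ cells. The first ratio rests on 1 count and was 85.9 without mKate2- replicate 2, and the group had 0 counts without replicate 3. Both genes passed the filter on low counts only through the astrocytes, so their calls as lower are no independent support and their p-values are left out, and without astrocyte replicate 1 or 3 Psmb9 no longer passed it. The antisense gene Gm20496, which shares 498 exonic bases with Psmb8, had 1 count in all libraries together, and Tap1 had 1061, 981 and 1476 counts in astrocytes. Psmb10, which replaces Psmb7, had 18.2, 13.7 and 13.5 CPM in astrocytes, 18.6, 24.5 and 22.8 in mKate2- SB28 cells and 19.7, 38.1 and 26 in mKate2+ SB28 cells. In CPM all tumor libraries lay above all astrocyte libraries, on the TMM scale mKate2- replicate 1 fell among the astrocytes, and mKate2+ replicate 2 was the highest of the 9. The log2 fold changes were 0.55 (SE 0.19, adjusted p = 0.0341) for mKate2- and 0.97 (SE 0.28, adjusted p = 0.0196) for mKate2+ cells. The first call was lost in 7 of 13 alternatives (adjusted p from 0.00567 to 0.117), and the second without astrocyte replicate 2, astrocyte replicate 3 or mKate2+ replicate 2 (adjusted p = 0.0735, 0.0517 and 0.0520, range 0.00378 to 0.0735). Psmb11, the thymic form of Psmb5, had 0, 2 and 6 counts in astrocytes and 0 in all SB28 libraries.

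**Figure D3:**
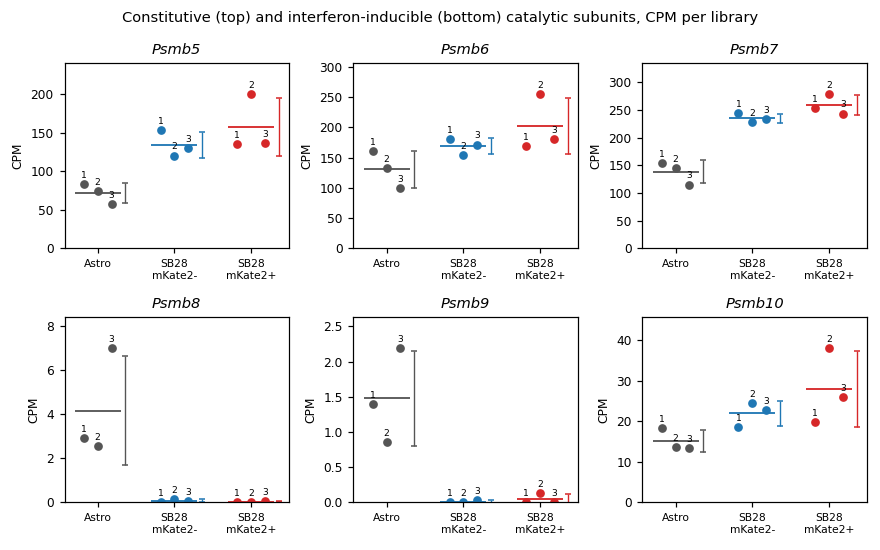
CPM of the constitutive catalytic subunits (upper row) and of their interferon-inducible counterparts (lower row) in each library, numbered by replicate, with the group mean as line and the SD as bar (n = 3); each panel has its own axis from 0. Psmb8 and Psmb9 lie at or near 0 in all 6 SB28 libraries, while Psmb10 follows the constitutive subunits upward, with its highest value, 38.1 CPM, in mKate2+ replicate 2.

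Levels of different genes were compared per kilobase of merged exonic length. On that scale Psmb8 was at 1.41% of Psmb5 and Psmb9 at 0.549% of Psmb6 in astrocytes (geometric means of 3 libraries), and Psmb10 at 21.9% of Psmb7. With the length of the principal transcript instead, an alternative chosen after the data were seen, the shares were 2.92%, 0.633% and 9.64%. Without astrocyte replicate 3 the merged-exon shares were 0.928%, 0.383% and 21.1%. In SB28 cells the log2 ratio of Psmb8 to Psmb5 was different from that in astrocytes by -5.85 (mKate2-) and -6.64 (mKate2+), and that of Psmb9 to Psmb6 by -4.21 and -4.45, where counts under 3 in a library were set to 3. That floor stood in 2 of 3 mKate2- and 3 of 3 mKate2+ libraries for Psmb8, and in 3 of 3 and 2 of 3 for Psmb9, so the sizes depend on the floor and the depth and no test is read from them. The ratio of Psmb10 to Psmb7 was -2.19 ± 0.19 in astrocytes, -2.43 ± 0.26 in mKate2- and -2.26 ± 0.41 in mKate2+ cells on the log2 scale (SD, n = 3). Its differences from astrocytes, -0.23 and -0.064, were within the spread of the libraries (exact two-sided permutation p = 0.3 and 0.8, adjusted over the 7 ratios computed p = 0.42 and 0.8, where 3 against 3 libraries cannot go below 0.1).

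All 9 genes of the 19S base had positive log2 fold changes in both tumor groups, and 6 of 9 rose in each (29.3% and 28.0% of all genes did), with medians of 0.51 and 0.57. The ATPase gene Psmc2 (chromosome 5 from 21785283 to 21803787) had 127, 107 and 97.5 CPM in astrocytes, 183, 179 and 185 in mKate2- SB28 cells and 195, 209 and 192 in mKate2+ SB28 cells, without overlap and with log2 fold changes of 0.74 (SE 0.13, adjusted p = 0.00161) for mKate2- and 0.92 (SE 0.14, adjusted p = 0.00115) for mKate2+ cells. Psmc5, Psmc6 and Psmc3, also ATPases, and the scaffold subunits Psmd1 and Psmd2 rose in both, by 0.41 to 0.87 on the log2 scale. Psmc1 and Psmc4 lay between 0.29 and 0.42 and did not pass the test in either group. Psmd4, a ubiquitin receptor, had 188, 144 and 114 CPM in astrocytes, 158, 146 and 155 in mKate2- SB28 cells and 155, 144 and 158 in mKate2+ SB28 cells, and its log2 fold changes of 0.05 (SE 0.19, adjusted p = 0.819) and 0.11 (SE 0.19, adjusted p = 0.638) were small beside that spread. Psmd2 had the highest level per kilobase of the base in all 3 groups (122, 189.9 and 189.7 CPM per kb) and Psmc2 the lowest by merged exons (22 CPM per kb in astrocytes). By principal transcripts Psmd2 remained the highest, and Psmc6 was the lowest in astrocytes (56.7 CPM per kb) and Psmd4 in SB28 cells (72.3 and 72).

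Of the 8 lid genes, 5 rose in mKate2- and 6 in mKate2+ cells, against 29.3% and 28.0% of all genes, with medians of 0.49 and 0.57. Psmd7 (chromosome 8 from 107580381 to 107588464), the catalytically inactive partner of the deubiquitinase Psmd14, had the largest change of any subunit that rose. It had 189, 165 and 138 CPM in astrocytes, 399, 345 and 405 in mKate2- SB28 cells and 379.5, 368 and 405 in mKate2+ SB28 cells, and every tumor library exceeded the highest astrocyte library by more than 1.5-fold. The log2 fold changes were 1.23 (SE 0.15, adjusted p = 0.000276) for mKate2- and 1.30 (SE 0.15, adjusted p = 0.000282) for mKate2+ cells. Psmd14 itself had 143, 155 and 107 CPM in astrocytes, 261, 211 and 232 in mKate2- SB28 cells and 229, 207 and 239 in mKate2+ SB28 cells, with log2 fold changes of 0.81 (SE 0.16, adjusted p = 0.00317) for mKate2- and 0.81 (SE 0.16, adjusted p = 0.00334) for mKate2+ cells. Psmd12, Psmd13 and Psmd3 rose in both and Psmd6 passed only in mKate2+ cells (0.38, SE 0.13, adjusted p = 0.0313, against 0.31, SE 0.14, adjusted p = 0.0823), although that difference between the tumor groups was itself 0.06 (SE 0.10). Psmd11 and Psmd8 passed in neither, and Psmd8 had 210.1, 179 and 129 CPM in astrocytes, 178, 166 and 151 in mKate2- SB28 cells and 184, 205 and 162 in mKate2+ SB28 cells, with overlapping groups. Psmd7 was the highest of the lid per kilobase in all 3 groups (72.7, 169 and 169.9 CPM per kb) and Psmd11 the lowest by merged exons (25.6, 28 and 28.9). In the 20S core the highest was Psma5 (117, 244 and 230.4 CPM per kb) and the lowest of the constitutive subunits Psma3 (30.1, 32 and 35.4). By principal transcripts the highest was Psmb4 in astrocytes (184) and Psma7 in SB28 cells (328 and 360.5).

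The caps differed in direction, as Psme1 fell in mKate2- cells while Psme3 and Psme4 rose in both tumor groups. Psme1 and Psme2 encode the alpha and beta chains of the interferon-inducible PA28 cap. Psme1 had 67.3, 56.7 and 46.6 CPM in astrocytes, 37.8, 38.8 and 34.8 in mKate2- SB28 cells and 33.2, 49.4 and 36.2 in mKate2+ SB28 cells. All mKate2- libraries lay below all astrocyte libraries, while mKate2+ replicate 2 fell among the astrocytes. The log2 fold changes were -0.60 (SE 0.16, adjusted p = 0.0121) for mKate2- and -0.44 (SE 0.22, adjusted p = 0.120) for mKate2+ cells. The first call was lost without mKate2- replicate 3 (adjusted p = 0.0544, range 0.00152 to 0.0544), and without mKate2+ replicate 2 the second value was -0.67 with adjusted p = 0.0296 (range 0.0296 to 0.324). Psme2 had 46.1, 40.5 and 33.4 CPM in astrocytes, 31.6, 30.3 and 27.9 in mKate2- SB28 cells and 25.5, 46.7 and 29.1 in mKate2+ SB28 cells. Its log2 fold changes were -0.41 (SE 0.16, adjusted p = 0.0511) for mKate2- and -0.16 (SE 0.27, adjusted p = 0.632) for mKate2+ cells, so it passed in neither, and the first crossed the threshold in 5 of 13 alternatives (adjusted p from 0.00793 to 0.164). Psme2b, a near copy of Psme2 that could share reads with it and is uncertain for that reason, had 1.43, 2.51 and 2.19 CPM in astrocytes, 1.58, 1.25 and 1.01 in mKate2- SB28 cells and 0.915, 3.41 and 1.23 in mKate2+ SB28 cells. Psme3, the nuclear PA28 gamma, had 66.4, 80.2 and 70.4 CPM in astrocytes, 127, 121 and 148 in mKate2- SB28 cells and 135, 124 and 149 in mKate2+ SB28 cells, without overlap. Its log2 fold changes were 0.88 (SE 0.12, adjusted p = 0.000408) for mKate2- and 0.98 (SE 0.12, adjusted p = 0.000338) for mKate2+ cells. Psme4, PA200, rose as well (0.47 and 0.45), and the inhibitor gene Psmf1 had 0.29 and 0.34 without passing the test.

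All 7 assembly chaperones had positive log2 fold changes in both tumor groups, and 5 rose in mKate2- and 4 in mKate2+ cells, while 29.3% and 28.0% of all genes rose. Psmg1 (chromosome 16 from 95979933 to 95990960), which pairs with Psmg2 to start the alpha ring, had 20.7, 18.5 and 14.9 CPM in astrocytes, 49.99, 42.9 and 44.6 in mKate2- SB28 cells and 45.3, 45.2 and 46.8 in mKate2+ SB28 cells. Its log2 fold changes of 1.36 (SE 0.16, adjusted p = 0.000251) for mKate2- and 1.42 (SE 0.16, adjusted p = 0.000275) for mKate2+ cells were the largest among members that rose. Psmg2 had 21.4, 19.7 and 19 CPM in astrocytes, 38.3, 30.4 and 33.2 in mKate2- SB28 cells and 32.1, 33.5 and 35.2 in mKate2+ SB28 cells, also without overlap, and rose by 0.77 and 0.82 on the log2 scale. Psmd10 and Psmd5, chaperones of the 19S base, rose in both by 0.44 to 0.76, while Psmd9, the remaining one of that kind here, had 0.17 (SE 0.16, adjusted p = 0.381) and 0.42 (SE 0.18, adjusted p = 0.0809). Psmd9 is uncertain, as it shares 1849 exonic bases with Gm26745 on the opposite strand. Psmg3 passed in mKate2- cells (0.64, SE 0.23, adjusted p = 0.0410) and had 0.61 (SE 0.24, adjusted p = 0.0590) in mKate2+ cells, and it shares 280 exonic bases with Gm26938 on its own strand. Psmg4 had 4.99, 4.22 and 3.27 CPM in astrocytes, 7.1, 4.68 and 5.26 in mKate2- SB28 cells and 4.69, 11.8 and 5.5 in mKate2+ SB28 cells, with mKate2+ replicate 2 the highest, and passed in neither. Psmc3ip, which is no subunit, had 7.81, 8.53 and 7.0 CPM in astrocytes, 17.9, 13.9 and 19 in mKate2- SB28 cells and 16, 17.8 and 16.3 in mKate2+ SB28 cells and rose by 1.14 and 1.18, and it shares 385 exonic bases with Mlx on the opposite strand.

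Proteasome-bound proteins whose symbols fall outside the pattern were similar in direction. Of 8 genes, 5 rose in each tumor group and 0 fell, beside 29.3% and 28.0% of all genes that rose, with medians of 0.59 and 0.68. These were the proteasome deubiquitinases Uchl5 and Usp14, the ubiquitin ligase Ube3c, the 19S-binding Ecpas and the nuclear import factor Akirin2. Uchl5 had 29, 28 and 26.4 CPM in astrocytes, 52.3, 49.1 and 53.8 in mKate2- SB28 cells and 55.9, 49.1 and 55.4 in mKate2+ SB28 cells, with log2 fold changes of 0.91 (SE 0.11, adjusted p = 0.000294) for mKate2- and 1.02 (SE 0.12, adjusted p = 0.000317) for mKate2+ cells. Ube3c had 0.90 (SE 0.10, adjusted p = 0.000175) for mKate2- and 0.98 (SE 0.11, adjusted p = 0.000277) for mKate2+ cells, and Usp14 0.69 (SE 0.10, adjusted p = 0.000488) for mKate2- and 0.68 (SE 0.12, adjusted p = 0.00177) for mKate2+ cells. Pomp, the chaperone that seats the beta subunits, had 79, 69.4 and 66.6 CPM in astrocytes, 81.2, 66.5 and 71.1 in mKate2- SB28 cells and 70.7, 112 and 76.7 in mKate2+ SB28 cells, with log2 fold changes of 0.04 (SE 0.12, adjusted p = 0.810) for mKate2- and 0.36 (SE 0.21, adjusted p = 0.181) for mKate2+ cells, and the sign of the first turned under upper-quartile normalization (-0.043). Of 13 tested ubiquitin and shuttle genes, 7 rose and 2, Uba1 among them, fell in mKate2- cells, and 8 rose and 0 fell in mKate2+ cells, beside 29.3% and 28.0% of all genes that rose and 33.8% and 32.1% that fell. Among those that rose were the shuttle factor Rad23b and the ubiquilin Ubqln4. Rad23b had 203, 250.1 and 223 CPM in astrocytes, 429, 462 and 452 in mKate2- SB28 cells and 463, 567 and 476 in mKate2+ SB28 cells, and its log2 fold changes were 1.01 (SE 0.11, adjusted p = 0.000155) for mKate2- and 1.24 (SE 0.15, adjusted p = 0.000363) for mKate2+ cells. Those of Ubqln4 were 0.65 and 0.68.

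Of the 8 genes of the NRF1 axis, 1 rose and 3 fell in mKate2- cells, and 2 rose (Mafk and Maff) and 3 fell in mKate2+ cells, where 33.8% and 32.1% of all genes fell and 29.3% and 28.0% rose. Nfe2l1, the master regulator of the constitutive subunits, had 501, 529 and 586 CPM in astrocytes, 288, 308 and 264 in mKate2- SB28 cells and 301, 269.9 and 246 in mKate2+ SB28 cells. All tumor libraries were below all astrocyte libraries, with log2 fold changes of -0.89 (SE 0.11, adjusted p = 0.000312) for mKate2- and -0.91 (SE 0.13, adjusted p = 0.000773) for mKate2+ cells. Nfe2l2 (NRF2) fell by a similar amount (-0.66 and -0.67). Nfe2l3 was at 2.58, 2.23 and 1.79 CPM in astrocytes and at most 0.474 CPM in SB28 cells. It passed the filter only through the astrocytes, so its count among those that fell is no independent support. The small Maf partner Mafk rose (0.92 and 0.84). Ddi2 and Ngly1, which process the NRF1 protein, passed in neither. These are transcript levels, and NRF1 is known to be controlled largely as a protein.

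Of the 13 genes that carry interferon signals to the immunoproteasome, 9 were tested. In each tumor group 5 fell and 1 rose, where 33.8% and 32.1% of all genes fell and 29.3% and 28.0% rose. The interferon gamma receptor chain Ifngr2 had 56.1, 53.4 and 57 CPM in astrocytes, 27.1, 30.1 and 28.1 in mKate2- SB28 cells and 29.3, 31 and 26.4 in mKate2+ SB28 cells and fell by 0.95 (SE 0.11, adjusted p = 0.000209) and 0.86 (SE 0.13, adjusted p = 0.00109). Jak2 fell by 1.14 and 1.23 on the log2 scale, and Ifngr1, Stat2 and Irf9 fell in both. The gene that rose was Irf1, a transcription factor induced by interferon, with 19.4, 21.8 and 21.7 CPM in astrocytes, 33.8, 38.9 and 39.2 in mKate2- SB28 cells and 32.5, 37.3 and 38 in mKate2+ SB28 cells, and log2 fold changes of 0.85 (SE 0.12, adjusted p = 0.000589) for mKate2- and 0.86 (SE 0.14, adjusted p = 0.00139) for mKate2+ cells. Nlrc5, an activator of MHC class I genes, was at or below 1.17 CPM in all libraries, and Ifng itself had 0 counts in all 9.

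In the MHC class I pathway that uses proteasome products, the neighbours of Psmb8 and Psmb9 showed the steepest differences. Tap1 had 43.4, 29.99 and 42 CPM in astrocytes, 0.184, 0.362 and 0.838 in mKate2- SB28 cells and 0.416, 0.764 and 0.702 in mKate2+ SB28 cells, with fitted log2 fold changes of -6.35 and -5.85. Like Psmb8 and Psmb9 it passed the filter only through the astrocytes, so it is no independent support in the counts of genes that fell, and its p-values are left out. Tap2 had 42.1, 30.1 and 47.9 CPM in astrocytes, 1.84, 3.68 and 2.08 in mKate2- SB28 cells and 1.3, 2.01 and 1.78 in mKate2+ SB28 cells and -3.95 (SE 0.32, adjusted p = 4.15e-05) for mKate2- and -4.47 (SE 0.28, adjusted p = 1.94e-05) for mKate2+ cells. The class I heavy chain H2-K1 had 51.5, 40.8 and 66.1 CPM in astrocytes, 10.4, 15.7 and 12.7 in mKate2- SB28 cells and 11.3, 14.5 and 10.6 in mKate2+ SB28 cells, with -2.01 (SE 0.22, adjusted p = 0.000184) for mKate2- and -2.04 (SE 0.23, adjusted p = 0.000258) for mKate2+ cells. B2m, the light chain, had 231, 222 and 180.4 CPM in astrocytes, 129.8, 158 and 129 in mKate2- SB28 cells and 138, 211 and 136 in mKate2+ SB28 cells. It fell in mKate2- cells (-0.59, SE 0.14, adjusted p = 0.00808) and had -0.30 (SE 0.22, adjusted p = 0.274) in mKate2+ cells, which became -0.58 with adjusted p = 0.0206 without mKate2+ replicate 2 and -0.51 with a length trend removed (adjusted p range 0.00629 to 0.589). Among the 11 genes 6 fell and 2 rose in mKate2- cells, and 4 fell and 2 rose in mKate2+ cells, beside 33.8% and 32.1% of all genes that fell and 29.3% and 28.0% that rose. Those that rose were the general endoplasmic reticulum chaperones Calr (0.93 and 1.12) and Pdia3, which also serve other proteins.

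**Figure D4:**
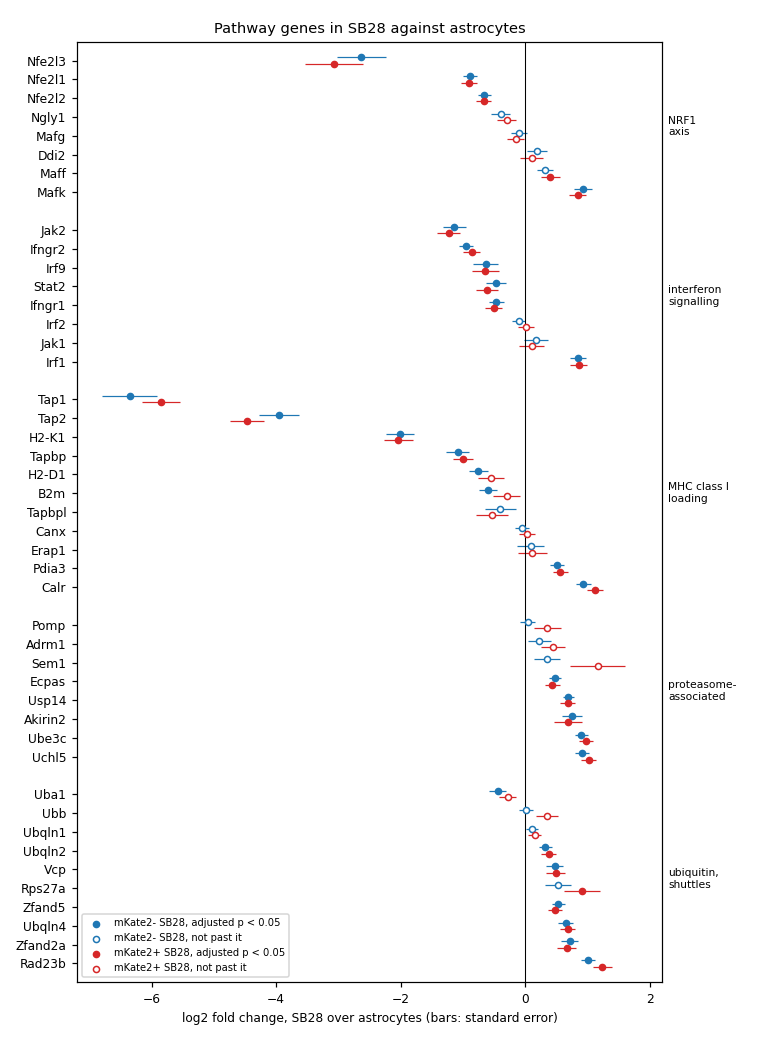
Log2 fold change of tested genes, less 4 that are not reported here but are in the counts of the text, of the NRF1 axis, interferon signalling, MHC class I loading, proteasome-associated proteins, and ubiquitin and shuttle factors in SB28 cells over astrocytes (blue, mKate2-; red, mKate2+), with the standard error as bar and filled where the adjusted p is below 0.05. Tap1 and Tap2 lie farthest to the left, at -6.35 and -3.95 in mKate2- cells. Tap1 and Nfe2l3 passed the filter on low counts only through the astrocytes, so they had to be lower and their filled points are no independent support.

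Immune cells express the immunoproteasome strongly, so their markers were read in the astrocyte libraries. Of 14 microglia and macrophage markers, 4 averaged above 1 CPM there, among them Tmem119 (39.1, 24.8 and 30.5 CPM), Cd68 and, at 1.06, 2.54 and 0.484 CPM, P2ry12. Of the markers that did not average above 1 CPM, Ptprc, Aif1, Cx3cr1, Itgam and Trem2 reached at most 0.214, 0.409, 0.0409, 0.245 and 0.153 CPM in any astrocyte library. Cd68 had 15.7, 17.9 and 6.69 CPM in the astrocyte libraries. The 14 markers summed to 100.1, 99.6 and 103 CPM in astrocytes, 75.6, 86.9 and 86.5 in mKate2- and 80.7, 93.8 and 80.2 in mKate2+ cells, where Tmem119 was the most abundant. The lymphocyte genes Cd3e and Nkg7 had 0 counts in every library, and Cd79a reached 0.409 CPM in astrocytes. Endothelial markers summed to 1.76, 1.44 and 6.94 CPM in astrocytes, with Cdh5 the most abundant and highest in replicate 3 and Cldn5 at 0 counts there. Fibroblast and pericyte markers, led by Col1a1 (325, 324 and 151 CPM), summed to 387, 381 and 212 CPM in astrocytes and 195, 237 and 217 and 228, 151 and 173 CPM in SB28 cells. The part of these other cells in the differences was not tested.

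The third question was whether tumor cells that had received astrocyte mitochondria differed from those that had not. With edgeR 0 of the 46 proteasome genes tested passed an adjusted p of 0.05, as did 0 of all 11854 genes (0.00%), and DESeq2 also called 0. At an unadjusted p below 0.05 there were 0 members, beside 2.03% of all genes. A fold change above 1.5 with an unadjusted p below 0.05, both from edgeR, and a mean normalised count above 50, the criteria by which the study chose genes higher in mKate2+ cells, were met by 0 members, beside 0.194% of all genes. Log2 fold changes were positive for 40 of 46 genes, with a median of 0.11, beside 0.0033 for all genes. Without mKate2+ replicate 2 the median of the members was 0.042, with 35 of 46 positive. Psmb8 and Psmb9, at no more than 6 counts in any SB28 library, could not be compared, and no fold is given.

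The positive values ran through the 20S core, where mKate2+ replicate 2 stood apart. On the TMM scale it was highest of the SB28 libraries in 13 of the 14 constitutive core genes and mKate2- replicate 2 was lowest in 14, and in CPM these numbers were 11 and 13. Psmb3, for example, was at 124, 202 and 124 CPM in mKate2+ and 131, 113 and 115 CPM in mKate2- cells, and Psmb2 at 84.9, 129 and 88.6 and 90.7, 80.4 and 90.01 CPM. On the TMM scale the 8 tested beta ring genes had a median of 0.58 log2 units above the mean of the 6 libraries in mKate2+ replicate 2, and between -0.18 and -0.02 in the other 5. The 17 genes of the 19S base and lid had a median of 0.046 in the same library. The lid subunit gene Sem1 was at 61.4, 172 and 61.8 CPM in mKate2+ and 72.8, 50.9 and 54.2 CPM in mKate2- cells, and the long Psme4 was at 297, 226 and 289.6 and 271, 299 and 284 CPM. Across the 46 genes the deviation of that library and the length of the principal transcript had a Spearman rho of -0.62, or -0.43 with merged exonic length, given as a description over genes of the same libraries. The median principal transcript was 1162.5 bases for the constitutive core, 1904 bases for the 19S base and lid and 1059 bases for the assembly chaperones, whose median deviation in that library was 0.16 beside 0.39 for the core. Whether transcript length has a part in these values was not tested beyond the fit with a length trend, in which the median of the members was 0.062.

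**Figure D5:**
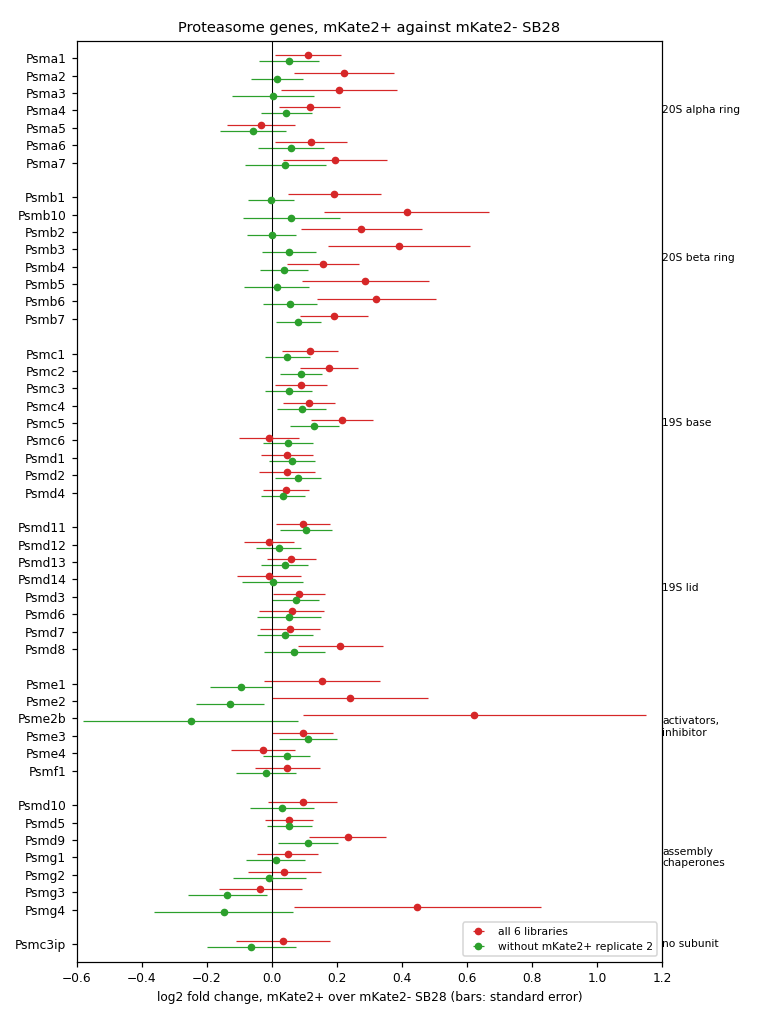
Log2 fold change of each tested proteasome gene in mKate2+ over mKate2- SB28 cells with all 6 libraries (red) and without mKate2+ replicate 2 (green), with the standard error as bar. The beta ring genes move closer to 0 without that library, Psmb3 from 0.39 to 0.05, while the 19S genes other than Psmd8 shift by smaller amounts.

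The smallest unadjusted p-values of members that were higher in mKate2+ cells belonged to Psmc5, Psmc2 and Psmd9. Psmc5 was at 171, 181 and 167 CPM in mKate2+ and 159.5, 142 and 163 CPM in mKate2- cells, which gave 0.21 on the log2 scale (SE 0.10, unadjusted p = 0.0555, adjusted p = 0.923). Psmc2 was at 195, 209 and 192 and 183, 179 and 185 CPM (0.18, SE 0.09, unadjusted p = 0.0833). Psmd9 was at 35.6, 43 and 39.3 and 32.7, 34.1 and 37.6 CPM (0.23, SE 0.12). In Psmc5 and Psmc2 all mKate2+ libraries exceeded all mKate2- libraries. On the TMM scale alone the same held for the ATPase genes Psmc1 and Psmc4, named here after their values were seen, with log2 fold changes of 0.12 and 0.11 that did not pass the test. On that scale 4 of 46 members (8.70%) were higher without overlap, beside 4.19% of all genes, and 0 were lower, beside 5.00%. In CPM 2 of 46 (4.35%) were higher, beside 2.16%, and 0 lower, beside 6.67%. Without mKate2+ replicate 2 the 4 log2 fold changes were 0.13, 0.09, 0.05 and 0.09, and that of Psmd9 was 0.11. The smallest p-values of members with negative values belonged to Psma5, Psme4 and Psmg3, at -0.03, -0.03 and -0.04, each less than its SE.

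For the catalytic genes the log2 fold changes in mKate2+ over mKate2- cells were 0.29 (SE 0.20) for Psmb5, 0.32 (SE 0.18) for Psmb6, 0.19 (SE 0.10) for Psmb7 and 0.41 (SE 0.25) for Psmb10, and without mKate2+ replicate 2 they were 0.01, 0.06, 0.08 and 0.06. Those of Psme1 and Psme2, 0.15 and 0.24, turned to -0.10 and -0.13. Those of Psme2b and Psmg4, named after their values were seen, turned from 0.62 and 0.45 to -0.25 and -0.15. The log2 ratio of Psmb10 to Psmb7 was higher by 0.17 in mKate2+ cells (exact permutation p = 0.5, adjusted p = 0.583) and became -0.024 without that library. Outside the pattern, the ubiquitin receptor Adrm1 was at 112, 116 and 106 CPM in mKate2+ and 98, 98.7 and 103 CPM in mKate2- cells, with no overlap and a log2 fold change of 0.21 (unadjusted p = 0.0410, adjusted p = 0.923). Sem1 and Pomp had 0.81 (SE 0.42) and 0.31 (SE 0.20), and the ubiquitin gene Ubb 0.33 (SE 0.17), with mKate2+ replicate 2 the highest of the 6 in each. Without that library they were 0.06, 0.018 and 0.098. Rad23b had 0.22 (SE 0.12), with a range of 0.072 to 0.30 over the alternatives. In the regulatory lists the values with the smallest p were 0.11 for Irf2, -0.15 for Stat2, -0.08 for Jak1, 0.18 for Calr, -0.52 for Tap2, 0.29 for B2m, -0.10 for Ddi2, -0.09 for Mafk and -0.07 for Mafg, all with adjusted p of at least 0.923. Over the alternatives that of Tap2 ranged from -0.72 to -0.14. Nfe2l1 had -0.02, and Irf1 had -0.00032.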

How the data were processed

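Total RNA of sorted co-culture cells was sequenced as paired reads. Per the study's methods and the submitters' processing notes, reads were trimmed with Trimmomatic 0.36, aligned to GRCm38 with STAR 2.5.2b and counted per gene with featureCounts (Subread 1.5.2), keeping reads with 1 location. The authors deposited raw counts of 9 libraries, with no normalization. The annotation release and the strand setting are not given in the sources used here, and the sources differ on which cells carried the CellTrace Violet dye, so libraries were grouped by their labels alone. The table held 0 per-sample columns without a labelled sample.

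CPM was computed on library totals and fold changes with edgeR 4.0.16 (R 4.3.3), TMM normalization and the quasi-likelihood test, in a separate fit per comparison of genes above 1 CPM in at least 2 of its 6 libraries, with Benjamini-Hochberg adjustment over all tested genes and a threshold of 0.05. The code was tested on simulated data. Ratios between genes were taken per kilobase of exonic length with counts under 3 set to 3, and compared by exact two-sided permutation over libraries (scipy 1.17.1). The Psmb8 to Psmb5 and Psmb9 to Psmb6 ratios were not compared between the tumor groups, which left 7 tests for adjustment. Intervals are 95% and cover counting error only. The replicates were biological and came from separate co-cultures. With 3 libraries per group the smallest exact p is 0.1.

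Alternatives were DESeq2 1.42.0, upper-quartile normalization, other filters on low counts, 1 fit to all libraries, a replicate block, removal of a length trend and leaving out each library. Members and gene lists were chosen with earlier results of these data known. Named were the catalytic pairs, Psme1, Psme2 and the tissue forms; the 5 members with the smallest p in each direction among those called, or 3 where none was; the members highest and lowest per kilobase; of each list the 3 genes with the smallest p and a few fixed ones; and of each marker list its most abundant gene and those at 0. A few listed genes and 1 motif that these rules cover are not reported here.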

Additional observations from a re-analysis of the deposited data

How the results depend on the processing

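Over the alternatives run, the number of proteasome genes called higher than in astrocytes stayed between 23 and 38 in mKate2- and between 25 and 38 in mKate2+ SB28 cells, and 0 were called between the tumor groups under every one of them. The number called lower in mKate2+ cells was 0 with at least 10 counts in every library, which removes Psmb8 and Psmb9 from the test. With a library left out that number was 1 to 3. Psmb9 was not tested without astrocyte replicate 1 or 3, and Psme1 was called lower without mKate2+ replicate 2 (adjusted p = 0.0296). The log2 ratio of Psmb10 to Psmb7 changed sign when a library was left out, with a range of -0.26 to 0.15 for mKate2+ cells against astrocytes and -0.024 to 0.38 between the tumor groups. Without a filter on low counts the median log2 fold change of all genes moved to -0.21 and -0.19 against astrocytes, while those of the members were 0.51 and 0.65. The labels do not tie replicate numbers to single co-cultures, so pairing was not assumed; correlations of same-numbered libraries ran from -0.15 to 0.25, and not every library correlated best with its own number. With the number as a block mKate2- cells had 29 members higher and 4 lower, mKate2+ cells 31 and 2, and the tumor groups differed in 0.

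Values of these single genes, none of them called in the comparison given, changed sign; the cause was not tested. Against astrocytes, Pomp in mKate2- cells became -0.039 with at least 10 counts and -0.043 with upper-quartile normalization (-0.043 to 0.12 with a library left out), and Psme2 in mKate2+ cells ranged from -0.51 to 0.029. Between the tumor groups, Psme2b and Psmg4 turned from 0.62 and 0.45 to -0.25 and -0.15 without mKate2+ replicate 2, and leaving out a library gave -0.12 to 0.056 for Psma5, -0.078 to 0.045 for Psme4, -0.14 to 0.032 for Psmg3, -0.096 to 0.29 for Psme1, -0.13 to 0.43 for Psme2, -0.014 to 0.41 for B2m, -0.17 to 0.00011 for Mafk, -0.087 to 0.048 for Nfe2l1 and -0.079 to 0.087 for Irf1. With a length trend removed Psme4 became 0.043 and Nfe2l1 0.012, and Irf1 became 0.0017 with DESeq2, 3.4e-05 with at least 10 counts and 0.0085 without a filter. Psmb8 and Psmb9 lie near the limit of detection in SB28 cells, where depth allows no comparison between the tumor groups.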
